A study of Sus scrofa with 8 samples.

Results

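A month of primary culture of porcine oviductal epithelial cells was compared with its first harvest. The comparison took the 2 arrays labelled 30 days and the 2 arrays labelled 24h, 4 of the 8 arrays of the series, and used the difference of the mean log2 values of each named gene. The other arrays, 2 at 7 days and 2 at 15 days, entered the same statistical model and are quoted to show how levels at 30 days stood against the intermediate harvests.

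The cells came from oviducts of Landrace crossbred gilts of about 9 months, 45 in all, that had shown regular estrous cycles. Epithelium was scraped off, dispersed with collagenase I and trypsin, and grown in DMEM with 10% fetal bovine serum, penicillin, streptomycin and amphotericin B, so all groups share this isolation and medium and differ by the time of harvest. RNA came from pooled samples. Each time has 2 arrays described as biological replicates, but no label says that they came from separate pools of cells, so p-values reflect the spread between these arrays alone, which may be technical. The 24h cells had already been isolated and plated, and intact oviduct was not analysed here.

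The oviductal lining holds secretory cells, which release oviductal glycoprotein and mucins around gametes and embryos, and ciliated cells, whose motile cilia move them. Epithelial cells are bound by claudins, desmosomes and EPCAM and rest on a basement membrane, whereas stromal fibroblasts and smooth muscle cells below them deposit fibrillar collagen and contract. Cells in serum-containing culture can divide for a time and then stop, and their programmes of division, matrix production and metabolism are read here at the RNA level.

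Each array gave 27558 probe set values on a log2 scale, on which 1 unit is a 2-fold difference, and 10901 named genes were tested. Array medians lay between 4.69 and 4.77. Taken over probe sets, none of which is an independent replicate, the 30 days arrays correlated with each other at r = 0.993 and with the 24h arrays at r = 0.921 to 0.925. At 24h, 76 genes differed by over 1 unit between the arrays, against 20 at 30 days. No detection calls were used, so dim genes and absent genes look alike. The lower quartiles of the arrays, 3.40 and 3.43 at 30 days and 3.49 and 3.48 at 24h, serve as a guide to dim values. In bulk RNA, fewer cells of a type and less RNA per cell cannot be told apart.

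Between 24h and 30 days the culture lost RNA of epithelial junction, mucin and keratinocyte-type genes by up to 243-fold (EPCAM, an epithelial adhesion molecule) and gained RNA of fibrillar matrix, contractile and stromal genes by up to 114-fold (LUM, a matrix proteoglycan). A gene was called, and is said to have risen or fallen, when its Benjamini-Hochberg adjusted p over all genes was under 0.05 in limma, a linear model with moderated variances. Of 10901 genes, 4494 were called (41.2%), 2197 higher at 30 days (20.2%) and 2297 lower (21.1%). The median change of all genes was -0.02. At least 2-fold differences were called in 1822 genes (16.7%), 970 higher and 852 lower, and at least 16-fold differences in 46 higher and 30 lower. The arrays of the groups did not overlap in 7343 genes (67.4%), so a lack of overlap is common here and carries little by itself. The median standard error of a change was 0.13 units.

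**Figure D1:**
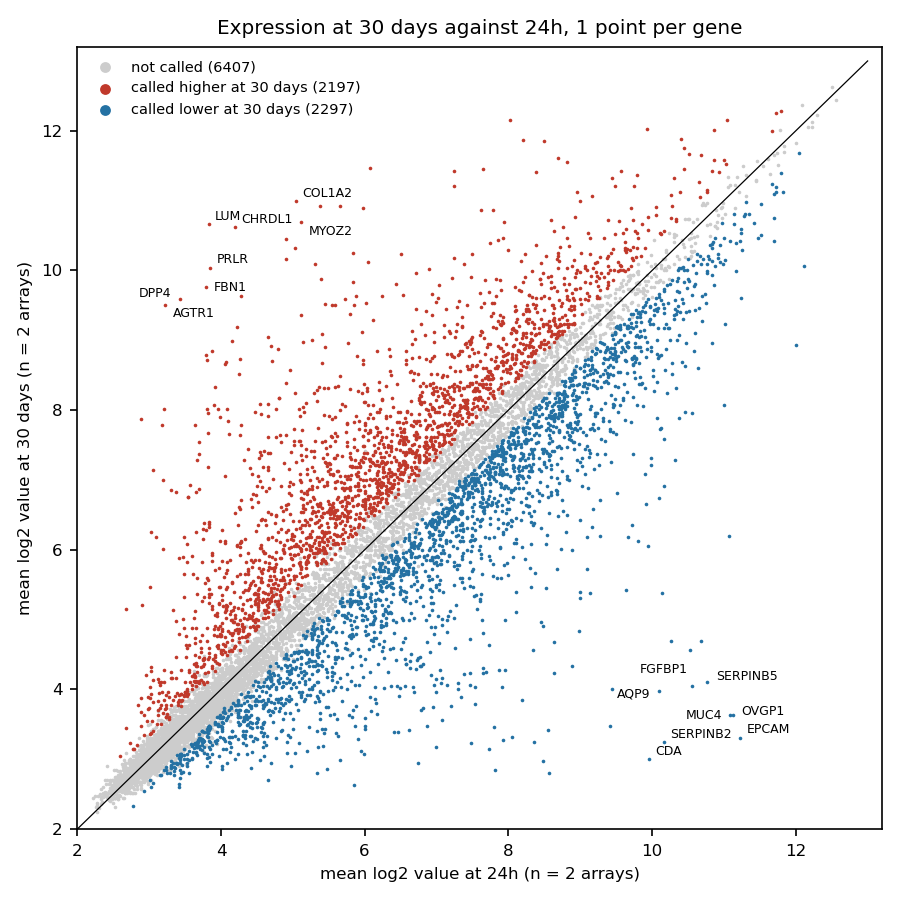
Mean log2 value of each of 10901 genes on the 2 arrays at 24h (horizontal axis) and the 2 arrays at 30 days (vertical axis), with genes called higher in red (2197), called lower in blue (2297) and not called in grey. The line marks equal values, and the 8 largest changes in each direction are named, with EPCAM, OVGP1 and MUC4 far below the line and LUM and CHRDL1 far above it.

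The largest fall was that of EPCAM, which encodes the epithelial cell adhesion molecule. Its log2 values were 11.22 and 11.24 at 24h, 9.64 and 9.38 at 7 days, 7.69 and 8.0 at 15 days, and 3.23 and 3.38 at 30 days. The fall from 24h to 30 days was 7.93 ± 0.14 (SE, n = 2 arrays per time, limma adjusted p = 2.7e-09), a 243-fold difference. Both 30 days arrays lay below their lower quartile, and the value at 30 days was also lower than that at 15 days by limma (-4.54 ± 0.14, adjusted p = 3.2e-07). MUC4, a membrane mucin, followed the same order of harvests. It measured 10.92 and 11.26 at 24h, 10.29 and 10.20 at 7 days, 8.14 and 8.30 at 15 days, and 3.82 and 3.45 at 30 days, and the change over the month was -7.45 ± 0.16 (SE, limma adjusted p = 3e-09). OVGP1, the oviductal glycoprotein secreted by this epithelium, had a different course. At 24h it measured 10.46 and 11.78, but 3.60 and 3.88 at 7 days and 3.51 and 3.76 at 30 days. Lower quartiles were 3.37 and 3.43 at 7 days and 3.40 and 3.43 at 30 days. OVGP1 was thus near the dim range from 7 days on, where a further fall could be hidden. The change of OVGP1 from 24h to 30 days was -7.49 ± 0.34 (SE, limma adjusted p = 1.3e-07), and the difference from 15 days was not called (0.22 ± 0.34, adjusted p = 0.79).

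The other 12 genes among the 15 largest falls lost between 5.44 units (RBP4, a retinol carrier) and 6.96 units (CDA, a cytidine deaminase of the nucleoside salvage pathway). They included SERPINB2, an inhibitor of plasminogen activators (-6.92 ± 0.15), SERPINB5, the epithelial serpin maspin (-6.67 ± 0.16), and FGFBP1, which releases fibroblast growth factors from matrix (-6.50 ± 0.21). AQP9, a water and glycerol channel (-6.11), APOBEC1, an RNA-editing deaminase (-5.98), SPINT1, an inhibitor of epithelial serine proteases (-5.96), and CLDN7, a claudin (-5.94), also fell. EDNRB, an endothelin receptor (-5.75), MUC1, a membrane mucin (-5.56), and ANKRD22, an ankyrin repeat protein (-5.50), completed the set. CDA, EDNRB and ANKRD22 ended, as EPCAM did, below the lower quartile of both 30 days arrays, so their fold changes may be limited by the floor. Over the 30 genes with the largest changes in the 2 directions, the largest limma adjusted p was 1.8e-07 and SEs ran from 0.11 to 0.34.

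Lists of genes were read by how many members were called in each direction, beside the 20.2% and 21.1% of all genes. The list for epithelial adhesion and identity had 29 measured members, of which 25 fell, 1 rose and 3 were not called, with a median change of -1.97 (2 rose without 24h replicate 2). Among its tight junction genes the falls, beside CLDN7, were those of CLDN4 (-3.08), MARVELD3 (-3.39), MARVELD2 (-2.04), OCLN, which encodes occludin (-1.97), CGN (-1.15) and CLDN8 (-0.83). The transcription factors GRHL2 (-3.51), GRHL3 (-3.29), EHF (-1.41) and OVOL1 (-1.23), which maintain epithelial gene expression, fell as well, as did AP1M2, the epithelial clathrin adaptor subunit (-4.74 ± 0.18). GRHL2 measured 7.58 and 7.48 at 24h, 5.98 and 5.85 at 7 days, 4.18 and 4.47 at 15 days, and 3.93 and 4.13 at 30 days. The desmosome genes DSP (-1.22), JUP (-0.59) and DSC2 (-0.42) fell, and PKP2, a plakophilin, was the member that rose (1.26 ± 0.11, from 5.80 and 5.82 to 7.10 and 7.05). CLDN7, EPCAM, SPINT1 and AP1M2 were named by their size, and the other genes of this paragraph were chosen after their values were seen.

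The simple-epithelium keratins, also singled out after their values were seen, differed among themselves. KRT8 measured 10.89 and 11.22 at 24h and 11.45 and 11.23 at 30 days (0.29 ± 0.14, limma adjusted p = 0.148). KRT19 measured 11.45 and 11.42 at 24h and 11.50 and 11.06 at 30 days (-0.16 ± 0.15, adjusted p = 0.47), so its arrays overlapped between times. KRT18, the partner of KRT8 in the keratin filament, fell from 9.01 and 9.23 to 7.70 and 7.17 (-1.69 ± 0.17, adjusted p = 2.9e-05), and was also lower than at 15 days (-1.80, limma adjusted p = 0.00013). EPCAM, KRT8 and KRT19 were thus all high at 24h, and KRT8 and KRT19 but not EPCAM were high at 30 days. KRT8 and KRT19 do not stand for the epithelial list, of which 25 of 29 measured members fell, KRT18 among them.

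**Figure D2:**
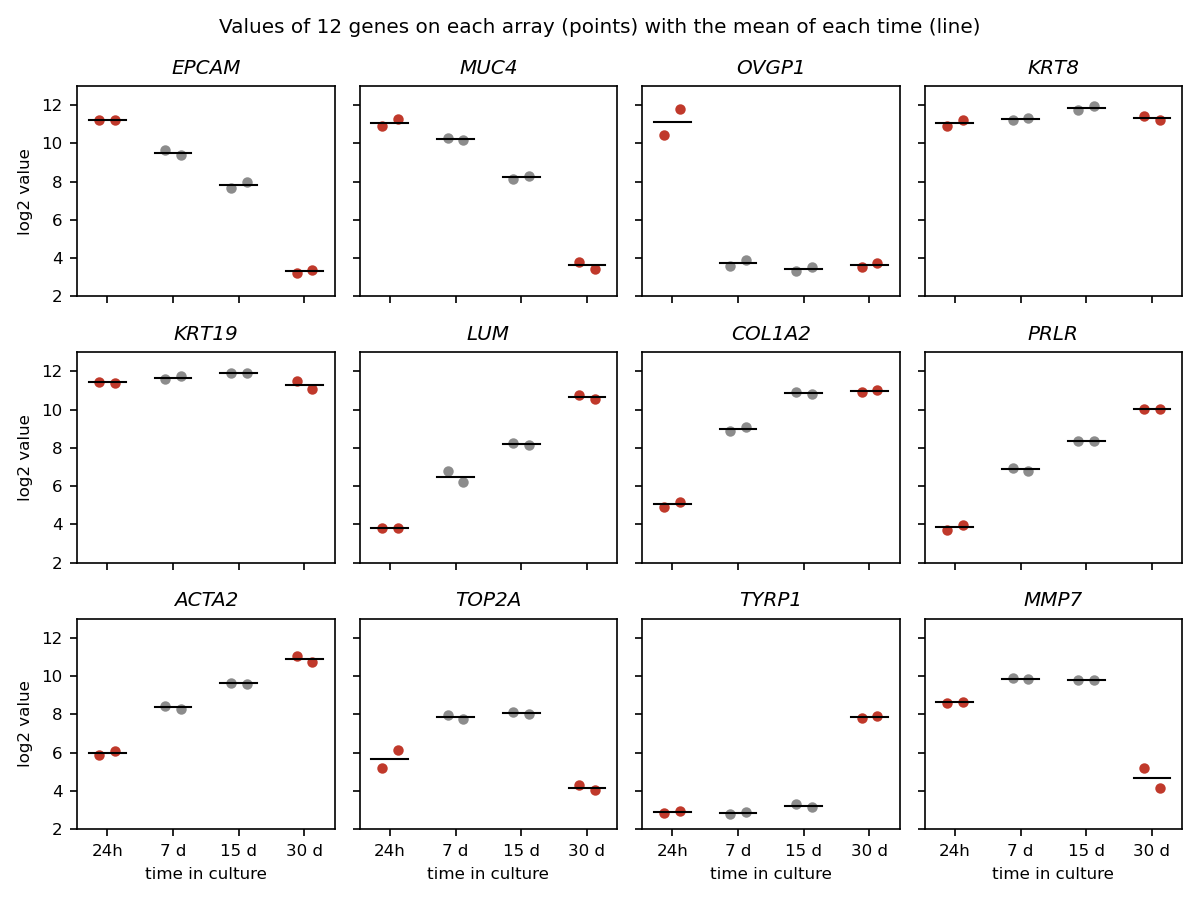
Log2 values of 12 genes on each of the 8 arrays (points, 2 per time, red for 24h and 30 days and grey for 7 and 15 days) with the mean of each time (line). EPCAM and MUC4 were lower at each harvest, OVGP1 was near 3.6 from 7 days on, KRT8 and KRT19 lay between 10.89 and 11.94 throughout, LUM, PRLR and ACTA2 were higher at each harvest, TOP2A was high at 7 and 15 days only, and TYRP1 and MMP7 differed at 30 days.

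Genes of squamous and basal epithelium, which mark stratified or wounded epithelia, fell in 12 of 15 measured members and rose in 0, with a median of -2.11. After the 2 serpins and FGFBP1 came S100A14, a calcium-binding protein (-3.56 ± 0.15), ITGB6 (-2.97) and ITGB4 (-1.50), integrin subunits, COL17A1, the hemidesmosomal collagen (-2.48), LAMB3, a laminin chain (-2.11), and KRT5, a basal keratin (-1.09). SERPINB2 measured 10.27 and 10.07 at 24h, 5.73 and 5.40 at 7 days, and 3.41 and 3.08 at 30 days, whereas SERPINB5 was still at 7.18 and 7.10 at 15 days before reaching 4.07 and 4.13. The groups did not overlap for either gene, as for 67.4% of all genes. The integrins, COL17A1, LAMB3 and KRT5 were chosen after their values were seen.

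Secretory markers of the oviduct went both ways. Of 20 measured genes, 10 fell and 5 rose, with a median of -0.32. Beside OVGP1, MUC4 and MUC1, the falls included PLAC8 (-2.02), WFDC2, a secreted protease inhibitor (-1.49), and LCN2, an iron-sequestering lipocalin (-1.37). CP, the copper-carrying ferroxidase ceruloplasmin, rose from 3.22 and 3.20 at 24h to 7.77 and 8.25 at 30 days (4.80 ± 0.17, limma adjusted p = 2.4e-08), and it had measured 7.56 and 7.62 at 15 days. C3, the central complement component (3.24), SLPI, an antiprotease (1.74), GPX3 (1.40) and CLU (1.15) were the other members that rose. PLAC8, WFDC2, LCN2, SLPI, GPX3 and CLU were chosen after their values were seen.

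Motile cilia genes were low at both times. Of 27 measured, 10 fell and 0 rose, with a median of -0.31. The 37.0% called did not exceed the 41.2% of all genes, of which 21.1% were called lower. The list's mean level was 4.18 and 4.37 at 24h against 3.69 and 3.74 at 30 days. SPAG6, a protein of the ciliary central apparatus, measured 4.99 and 5.40 at 24h and 3.01 and 3.22 at 30 days (-2.08 ± 0.15, limma adjusted p = 3.2e-06). MYB, a regulator of multiciliated cells that also acts in dividing cells, fell by 2.06, and LRRC6, a dynein assembly factor, fell by 1.57. DNAH7, a dynein heavy chain, fell by 2.23 on the probe set used, but its other probe set changed by -0.39 and was not called. FOXJ1, the master regulator of motile cilia and chosen after its values were seen, measured 4.83 and 5.68 at 24h and 4.68 and 4.37 at 30 days (-0.73 ± 0.30, adjusted p = 0.0884 in limma).

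The largest rise was that of LUM, the collagen-binding proteoglycan lumican. It measured 3.82 and 3.84 at 24h, 6.81 and 6.20 at 7 days, 8.24 and 8.16 at 15 days, and 10.77 and 10.56 at 30 days. The change was 6.83 ± 0.18 (SE, n = 2 arrays per time, limma adjusted p = 5.5e-09), 114-fold, of which the difference between 15 and 30 days was 2.47 ± 0.18 (adjusted p = 3e-05). The type I collagen gene COL1A2 gained 5.94 ± 0.13 over the month. It measured 4.93 and 5.16 at 24h, 8.91 and 9.11 at 7 days, 10.92 and 10.81 at 15 days, and 10.94 and 11.03 at 30 days, and its level at 30 days was not called different from that at 15 days (limma adjusted p = 0.673).

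Other secreted or matrix genes among the 15 largest rises were CHRDL1, an extracellular inhibitor of bone morphogenetic proteins (6.42 ± 0.14), FBN1, the microfibril protein fibrillin-1 (5.97 ± 0.16), LOX, which crosslinks collagen and elastin (5.54 ± 0.20), FMOD, the proteoglycan fibromodulin (5.39 ± 0.11), LIPG, a secreted lipase (5.29 ± 0.13), and COL14A1, a fibril-associated collagen (5.28 ± 0.25). Surface proteins were AGTR1, the type 1 angiotensin receptor (6.29 ± 0.18), PRLR, the prolactin receptor (6.19 ± 0.13), DPP4, a peptidase of the cell surface (6.17 ± 0.14), SGCE, a sarcoglycan (5.55 ± 0.14), and CDH11, a cadherin of mesenchymal cells (5.28 ± 0.12). MYOZ2, a sarcomere protein of muscle (5.58 ± 0.19), and UBD, a ubiquitin-like modifier (5.35 ± 0.17), were the remaining 2. AGTR1 measured 3.38 and 3.06 at 24h, below the lower quartile of both arrays, and 9.57 and 9.45 at 30 days. COL14A1 had arrays of 6.14 and 5.16 at 24h, the widest gap in this group of genes, and 10.89 and 10.97 at 30 days.

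Collagens and their processing enzymes rose in 19 of 24 measured genes and fell in 1, LOXL4 (-0.39, which was not called without 24h replicate 1 or either 30 days replicate), with a median of 1.22. COL5A2, which sets fibril diameter, rose by 4.62 ± 0.11, COL8A1 by 4.38, COL1A1 by 4.13, PLOD2, a collagen lysyl hydroxylase, by 3.87, and COL3A1 by 2.99. COL1A1 measured 8.10 and 7.93 at 24h, 12.12 and 12.16 at 15 days, and 12.16 and 12.14 at 30 days. The list's mean level was 5.48 and 5.50 at 24h, 7.49 and 7.51 at 15 days, and 7.64 and 7.47 at 30 days, so most of the difference from 24h was present at 15 days. Of 21 elastic fibre and proteoglycan genes, 12 rose and 1 fell, HAPLN1 (-0.80), with a median of 1.05 (2 fell without 24h replicate 1). LTBP2, a microfibril-associated binding protein, rose by 4.78 ± 0.15, EFEMP2 by 3.74, PRELP by 2.72 and OMD by 2.69. DCN, the proteoglycan decorin, and BGN, biglycan, were not called (0.32 and -0.59). COL1A1, COL8A1, PLOD2, COL3A1 and the members named after LTBP2 were chosen after their values were seen.

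Fibroblast and mesenchyme markers rose in 14 of 24 measured genes and fell in 0, with a median of 1.16 (1 fell without 24h replicate 1 or 30 days replicate 2). The members with the largest rises were LUM, DPP4, SGCE and CDH11, followed by THY1, a fibroblast surface glycoprotein (4.97), FBLN5 (3.96), FN1, which encodes fibronectin (3.82), and TNC, tenascin (3.13). Genes that did not pass the test included PDGFRB (0.40), CDH2, which encodes N-cadherin (0.23), NT5E (0.10) and CD248 (-0.29). THY1, FBLN5, FN1, TNC and these 4 were chosen after their values were seen, as were TWIST1 and TWIST2 below. Among 17 mesenchymal transcription factors, 3 rose and 2 fell. PRRX1, a homeobox factor of connective tissue, rose from 3.01 and 3.11 to 7.19 and 7.08 (4.08 ± 0.15, limma adjusted p = 3.4e-08), and HAND2, a factor of heart and uterine stroma, rose from 3.12 and 3.51 to 6.87 and 6.83 (3.54 ± 0.19). NR2F2 rose by 0.53, a call lost without 24h replicate 1 or 30 days replicate 1. SNAI2, a factor linked to epithelial-mesenchymal transition and epithelial repair, fell from 8.10 and 7.79 to 5.46 and 4.55 (-2.94 ± 0.25, adjusted p = 9.5e-06), and WT1 fell by 0.45, a call lost without 24h replicate 1, which left 1 factor that fell. TWIST1 (0.16) and TWIST2 (0.17) were not called.

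Contractile genes rose. Of 15 measured genes of smooth muscle and myofibroblasts, 11 rose and 0 fell, with a median of 1.89 (1 fell without 30 days replicate 2). ACTA2, smooth muscle actin, measured 5.86 and 6.10 at 24h, 8.45 and 8.28 at 7 days, 9.66 and 9.59 at 15 days, and 11.06 and 10.73 at 30 days (4.92 ± 0.14, limma adjusted p = 1e-08). PLN, the calcium pump regulator phospholamban, was between 3.26 and 4.11 on all earlier arrays and measured 6.41 and 7.25 at 30 days (3.46 ± 0.23). ITGA8, an integrin subunit, rose by 3.36 and PDLIM3, a Z-disc protein, by 3.20, whereas MYOCD, the smooth muscle coactivator myocardin (-0.37), and CNN1, calponin (0.59), both chosen after their values were seen, were not called.

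Genes of cell division were lower at 30 days than at 7 and 15 days. Over 40 measured mitosis genes the mean level was 4.63 and 5.04 at 24h, 6.79 and 6.50 at 7 days, 6.60 and 6.44 at 15 days, and 4.52 and 4.38 at 30 days. Against 15 days, where 6.11% of all genes were called lower, 39 of the 40 were lower at 30 days and 0 higher, with a median of -1.95. The count stayed between 33 and 37 with any 1 of the 4 arrays left out. Against 7 days, where 26.0% of all genes were called and 14.1% were called lower, 38 were lower and 0 higher. Against 24h, where 20.2% of all genes were called higher and 21.1% lower, the change was smaller. In all, 42.5% of the list was called against 24h, near the 41.2% of all genes. By that comparison 14 fell and 3 rose, with a median of -0.39 (1 rose without 30 days replicate 1). The median was -0.63 with 21 lower without 24h replicate 1 and -0.25 with 10 lower without 24h replicate 2.

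TOP2A, the topoisomerase of dividing cells, measured 5.22 and 6.11 at 24h, 7.96 and 7.78 at 7 days, 8.10 and 8.0 at 15 days, and 4.30 and 4.02 at 30 days. Its change was -1.50 ± 0.24 from 24h (limma adjusted p = 0.00063) and -3.89 ± 0.24 from 15 days (adjusted p = 1.2e-05). KNTC1, a kinetochore protein, fell by 1.74 from 24h, and UBE2C, an ubiquitin carrier of the anaphase-promoting complex, fell by 1.42 (from 4.64 and 6.13 to 4.15 and 3.77), a call lost without 30 days replicate 2 (-1.23, adjusted p = 0.085 in limma). The change of UBE2C was -2.17 without 24h replicate 1 and -0.68 without 24h replicate 2. KIF23, a cytokinesis motor, was the member not lower than at 15 days. It measured 5.05 and 6.28 at 24h and between 8.27 and 8.55 on every later array (2.83 ± 0.30 from 24h, limma adjusted p = 4.4e-05).

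DNA replication genes did not share the low level of mitosis genes at 24h. Of 24 measured, 21 fell to 30 days and 0 rose, with a median of -1.17, and the list's mean level was 6.12 and 6.01 at 24h, 5.77 and 5.70 at 15 days, and 4.72 and 4.61 at 30 days. DTL, a ubiquitin ligase adaptor of S phase, fell by 3.74 ± 0.12, from 7.55 and 7.52 to 3.71 and 3.87. MCM4, a helicase subunit, fell by 3.49 ± 0.13, UHRF1, which maintains DNA methylation, fell by 2.71, and GINS2, a replisome subunit, fell by 2.02. Against 15 days, where 6.11% of all genes were called lower, 18 were lower and 0 higher, a count of 10 to 14 with 1 of the 4 arrays left out, the lowest without 15 days replicate 1.

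p53 target genes rose in 7 of 13 measured members and fell in 3, with a median of 0.80. TP53INP1 rose from 6.07 and 6.81 to 9.76 and 9.87 (3.37 ± 0.21, limma adjusted p = 1e-06), and RRM2B, a ribonucleotide reductase subunit, FAS, a death receptor, and CCNG1, a cyclin, rose by 2.75, 2.47 and 2.00. RRM2B had measured 8.34 and 7.79 at 7 days, overlapping its 8.40 and 8.26 at 30 days. Growth arrest and senescence genes went in both directions, 8 of 21 higher and 8 lower. CDKN2B, a cyclin-dependent kinase inhibitor, rose from 4.54 and 4.61 to 6.90 and 6.91 (2.33 ± 0.10), CDKN1A, which encodes p21, rose by 0.80, and the secreted IGFBP7 and GAS6 rose by 4.18 and 4.07. LMNB1, lamin B1, fell by 2.33, and CXCL8, the neutrophil chemokine interleukin-8, fell by 4.88 ± 0.13, from 11.10 and 11.05 to 6.38 and 6.01. CDKN1A and LMNB1 were chosen after their values were seen.

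**Figure D3:**
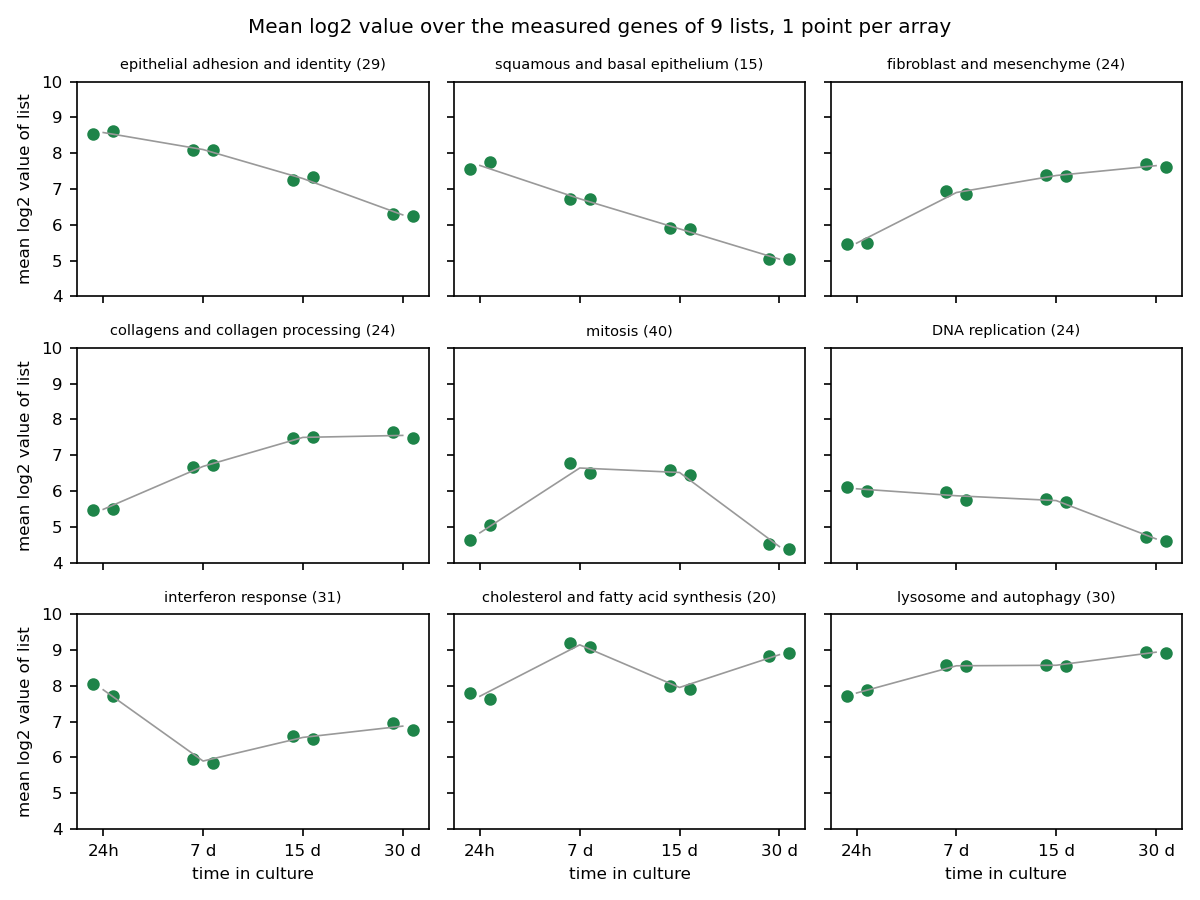
Mean log2 value over the measured genes of 9 lists on each of the 8 arrays (points), with a line through the mean of each time; the number of genes is in brackets. Epithelial and squamous lists were lower at each harvest, fibroblast and collagen lists were lowest at 24h, the mitosis list was near 6.5 at 7 and 15 days and near 4.5 at 30 days, and the interferon list was lowest at 7 days.

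Interferon response genes fell in 21 of 31 measured members and rose in 4, with a median of -0.77 (2 rose with any of the 24h or 30 days arrays left out). OASL, an interferon-induced antiviral gene, measured 8.63 and 7.75 at 24h and 3.99 and 3.70 at 30 days (-4.35 ± 0.24, limma adjusted p = 5.2e-07). RSAD2, viperin, measured 9.70 and 9.31 at 24h, 4.87 and 4.48 at 7 days, 6.24 and 6.02 at 15 days, and 7.03 and 6.60 at 30 days, a change of -2.69 from 24h. HERC5, a ligase for ISG15 (-2.61), and OAS1 (-2.20) fell. The list's mean level was 8.06 and 7.72 at 24h, 5.96 and 5.84 at 7 days, and 6.97 and 6.78 at 30 days. Against 7 days, where 11.8% of all genes were called higher, 19 of 31 were higher at 30 days and 0 lower. Against 15 days, where 3.94% of all genes were called higher, 7 were higher and 0 lower, with 1 to 4 higher when 1 of the 4 arrays was left out (1 without 30 days replicate 1). With arrays centred on their medians 12 were higher, and after further quantile normalization 10. Over all genes the number called higher than at 15 days rose too, from 430 as deposited to 884 and 545 under these scalings. These list counts therefore stand against a higher background than 3.94%.

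Among 24 antigen presentation genes, 9 fell and 4 rose. CD274, the checkpoint ligand PD-L1, fell by 4.58 ± 0.11, from 7.79 and 7.67 to 3.08 and 3.22, and SLA-DRA, a class II chain, fell from 6.74 and 7.85 to 3.91 and 4.26 (-3.21 ± 0.29). The immunoproteasome genes PSME2 (-1.16) and PSMB8 (-1.01) fell. B2M, the class I light chain, was not called (0.16). Of 34 cytokine, chemokine and NF-kB target genes, 11 rose and 12 fell. VCAM1, a leukocyte adhesion receptor, rose by 3.08 ± 0.31 from 8.40 and 7.17 at 24h, CSF1, a macrophage growth factor, by 3.02, and IL33, an alarmin, by 2.83. IL6 fell by 1.35 ± 0.15. Complement genes rose in 7 of 20 members and fell in 5 (3 without 30 days replicate 1 and 2 without replicate 2). The initiating proteases C1S and C1R rose by 3.92 and 3.25, whereas the recognition subunits C1QA, C1QB and C1QC fell (-1.16, -1.93 and -1.63), and C4A fell by 2.02. B2M, IL6 and the C1Q genes were chosen after their values were seen.

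Immediate early and heat shock genes were lower at 30 days in 19 of 23 measured members and higher in 2, with a median of -0.77. FOSL1, an AP-1 subunit, measured 9.81 and 10.01 at 24h and 6.57 and 6.73 at 30 days (-3.26 ± 0.17, limma adjusted p = 3e-07). DUSP5, a phosphatase of ERK, fell by 2.92, and the chaperone HSPH1 (-1.77) and MYC (-1.57) fell as well. Antioxidant and NRF2 target genes fell in 12 of 23 and rose in 7. GPX2, an epithelial glutathione peroxidase, fell from 8.06 and 8.65 to 3.36 and 3.15 (-5.10 ± 0.18), and the glutathione transferases GSTM3 (-4.76) and GSTA1 (-2.31) fell. CAT, catalase, rose by 2.00 ± 0.15.

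Matrix proteases and their inhibitors rose in 15 of 31 measured genes and fell in 8 (5 without 24h replicate 2 or 30 days replicate 1). MMP2, a gelatinase of stromal cells, rose from 5.08 and 5.14 to 9.25 and 9.48 (4.26 ± 0.12, limma adjusted p = 8.5e-09), CTSK, a collagen-degrading cathepsin, rose by 3.67, and TIMP3 by 3.38. MMP7, matrilysin, measured 8.61 and 8.64 at 24h, 9.90 and 9.84 at 7 days, 9.81 and 9.77 at 15 days, and 5.22 and 4.15 at 30 days (-3.94 ± 0.27 from 24h). MMP9 fell by 2.32 ± 0.54, with 24h arrays as far apart as 6.52 and 8.70. TIMP1 fell by 1.07. MMP9 and the TIMP genes were chosen after their values were seen.

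In the TGF-beta, BMP and activin pathway, 19 of 45 measured genes rose and 6 fell, with a median of 0.32 (0.19 without 24h replicate 1 and 0.16 without 30 days replicate 1, with 4 to 7 lower over the arrays left out). Among ligands, INHBA, an activin subunit, rose by 1.97, TGFB1 by 0.84 and BMP4 by 0.63. Receptors went both ways, BMPR2 by 1.23 and TGFBR2 by -0.54. Among extracellular antagonists, CHRDL1 and GREM1 rose (6.42 and 2.54), and FST, which sequesters activin, fell from 9.76 and 9.83 to 6.29 and 5.97 (-3.67 ± 0.15, limma adjusted p = 5.6e-08). The inhibitory SMAD7 and SMAD6 rose by 2.18 and 1.90.

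Wnt pathway genes rose in 13 of 34 and fell in 8 (5 without either 24h replicate and 3 without 30 days replicate 2). Secreted members of antagonist families led the rises, SFRP5 from 5.39 and 5.38 to 9.75 and 10.02 (4.50 ± 0.14, limma adjusted p = 1.2e-08), SFRP2 by 3.95 and DKK3 by 3.39. The receptor ROR2 rose by 1.72, FZD4, FZD2 and FZD6 by 1.25, 1.14 and 1.14, and AXIN2, a common readout of the pathway, was not called (0.10). In the insulin-like growth factor system, 7 of 16 genes rose and 4 fell. PAPPA, which cleaves IGF-binding proteins, rose by 3.86 ± 0.16 and IGFBP5 by 2.03, and the docking protein IRS1 fell by 2.09. Of the genes given for these pathways, only CHRDL1, LTBP2, FST, GREM1, SFRP5, SFRP2, DKK3, ROR2, IGFBP7, PAPPA, IRS1 and IGFBP5 were named by rule. The rest were chosen after their values were seen.

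Hormone receptor genes rose in 9 of 19 members and fell in 5. PRLR measured 3.71 and 3.98 at 24h, 6.96 and 6.79 at 7 days, 8.38 and 8.35 at 15 days, and 10.05 and 10.03 at 30 days, so no harvest overlapped with another. RARB, a retinoic acid receptor, and THRB, a thyroid hormone receptor, rose by 2.09 and 1.61, and PAQR8, a membrane progestin receptor, fell by 2.99. The sex steroid receptors, chosen after their values were seen, fell: ESR1 from 8.59 and 8.38 to 7.46 and 7.35 (-1.08 ± 0.14, limma adjusted p = 0.00018), and PGR from 6.93 and 7.02 to 6.13 and 5.85 (-0.99 ± 0.15, adjusted p = 0.00045). In the hypoxia and glycolysis list, 9 of 25 rose and 8 fell. EPAS1, a hypoxia-inducible factor subunit, rose by 4.07 ± 0.13, whereas HIF1A, chosen after its value was seen, was not called (0.13), and ADM (-2.25) and HK2 (-1.76) fell. PDK3 rose by 2.46 on the probe set used and was not called on its other probe set (-0.00). Against 7 days, where 14.1% of all genes were called lower, 16 of the 25 were lower at 30 days and 2 higher, with a median of -0.57.

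Genes of cholesterol and fatty acid synthesis rose in 16 of 20 measured members and fell in 0, with a median of 0.91. FADS2, a fatty acid desaturase, rose from 7.24 and 6.83 to 9.79 and 9.79 (2.76 ± 0.14, limma adjusted p = 2.9e-07), TM7SF2, a sterol reductase, by 2.56, SCD, the stearoyl-CoA desaturase, by 2.54, and ACSS2, an acetyl-CoA synthetase, by 2.49. The course was not monotonic. The list's mean level was 7.79 and 7.63 at 24h and 9.21 and 9.08 at 7 days. It was 7.99 and 7.92 at 15 days and 8.83 and 8.91 at 30 days. Against 7 days, where 14.1% of all genes were called lower, 7 of the 20 were lower at 30 days and 0 higher. With arrays centred on their medians, 5 were lower and 2 higher than at 7 days. SCD measured 8.18 and 7.66 at 24h, 10.28 and 10.23 at 7 days, 8.50 and 8.32 at 15 days, and 10.31 and 10.61 at 30 days. Against 15 days, where 3.94% of all genes were called higher, 18 of the 20 were higher at 30 days and 0 lower, with 13 to 16 higher when 1 of the 4 arrays was left out. INSIG1, a sensor of sterols chosen after its values were seen, was higher by 1.64 than at 15 days.

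Lysosome and autophagy genes rose in 24 of 30 members and fell in 0, with a median of 1.07 (1 fell without 30 days replicate 2). WIPI1, an autophagosome protein, rose from 4.59 and 4.54 to 8.10 and 7.78 (3.37 ± 0.13, limma adjusted p = 4.8e-08), and the cathepsins CTSF and CTSH rose by 2.82 and 2.74. MITF, a transcription factor of the family that controls lysosomal genes, measured 4.90 and 5.27 at 24h, 5.72 and 5.58 at 7 days, 6.81 and 6.80 at 15 days, and 7.96 and 8.07 at 30 days (2.93 ± 0.14). Its relatives TFEB (0.26) and TFE3 (-0.06), chosen after their values were seen, were not called. Against 15 days, where 3.94% of all genes were called higher, 12 of the 30 were higher and 0 lower, 3 to 6 when 1 of the 4 arrays was left out (3 without 30 days replicate 2 or 15 days replicate 1).

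Respiratory chain genes rose in 8 of 29 members and fell in 0, where 20.2% of all genes rose and 21.1% fell. In all, 27.6% of the list was called, against 41.2% of all genes. NDUFA2 and COX6C rose by 1.22 and 1.15 and NDUFB6 by 0.89. COX7C rose by 0.82 on one probe set and by 0.12, not called, on the other. Cytosolic ribosomal proteins fell in 22 of 38 members and rose in 1, with a median of -0.41. RPSA (-1.63) and RPL36 (-1.03) fell, while RPL10 rose from 7.28 and 6.20 to 8.56 and 8.45 (1.76 ± 0.27). Ribosomal protein genes have many near-identical processed copies in mammalian genomes, so their probe sets may not separate them.

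**Figure D4:**
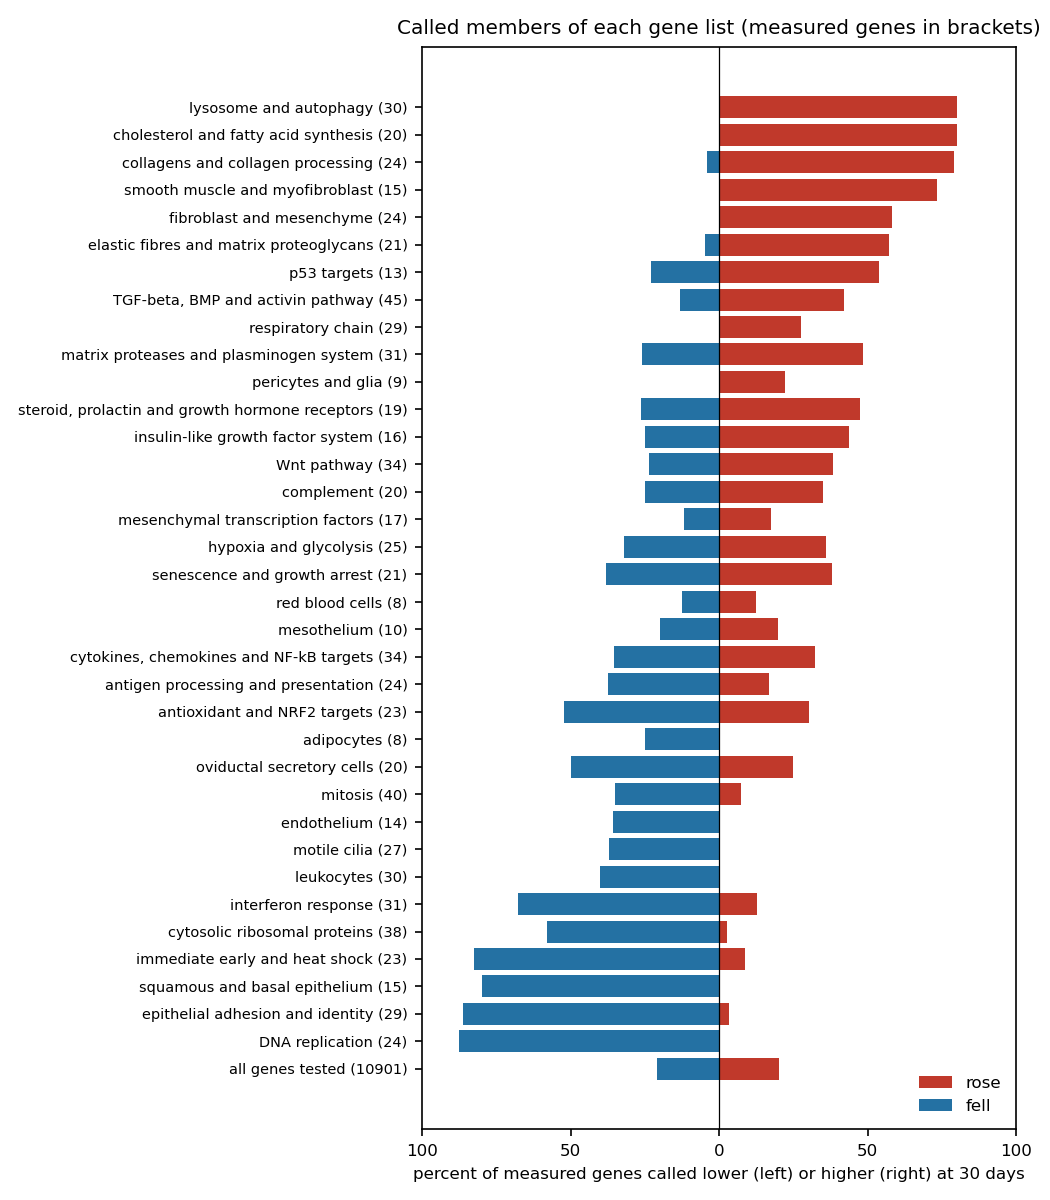
Share of the measured genes of each of 35 lists that rose (red, right) or fell (blue, left) between 24h and 30 days, in percent, with the number of measured genes in brackets and all 10901 genes in the lowest bar (20.2% and 21.1%). Lysosome, cholesterol, collagen and smooth muscle lists lie almost wholly to the right, and DNA replication, epithelial, squamous and immediate early lists almost wholly to the left.

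The direct comparison of 30 with 15 days called 1096 genes (10.1%), 430 higher and 666 lower. The all-gene median of this contrast moved from 0.01 to 0.14 when arrays were centred on their medians, and the counts then were 884 higher and 474 lower, so small differences between these times depend on the scaling. Without 15 days replicate 1 the count was 506, without 15 days replicate 2 it was 524 and without 30 days replicate 2 it was 567. The 10 genes named by rule from this comparison differed by far more than that shift. They were picked for the size of their called differences on these same arrays, so this follows from the choice. It says nothing about the other genes called here.

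The largest differences between 15 and 30 days that were also called against 24h were falls of MMP7 (-5.11 ± 0.27), MUC4, EPCAM, PLET1 (-4.18 ± 0.21) and PCLAF, a partner of the replication clamp (-3.92 ± 0.40), and rises of TYRP1, PLN, HAND2, C4H8orf46 (2.73 ± 0.14) and DPP4. TYRP1, a melanosomal enzyme related to tyrosinase, measured 2.83 and 2.93 at 24h, 2.79 and 2.91 at 7 days, 3.32 and 3.14 at 15 days, and 7.80 and 7.93 at 30 days. The rise from 15 days was 4.63 ± 0.12 (limma adjusted p = 9.6e-08), and all 6 earlier arrays lay below both of the last. PLET1 measured 8.25 and 8.85 at 24h and 7.67 and 7.53 at 15 days before 3.16 and 3.68. HAND2, by contrast, was between 3.12 and 4.29 on the 6 earlier arrays. PTGS2, the inducible prostaglandin synthase chosen after its values were seen, was level with 24h (0.26, not called) but 2.75 ± 0.16 above 15 days, at 8.06 and 8.09 against 5.44 and 5.20.

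Markers of other cell types were read on the same arrays. Over all genes, 41.2% were called and 21.1% were called lower. Endothelial markers fell in 5 of 14 measured genes and rose in 0 (35.7% called). Their list means were 4.51 and 4.77 at 24h and 4.13 and 4.13 at 30 days. CD34 (-1.72), ANGPT2 (-1.22) and ICAM2 (-1.06) fell, KDR fell by 1.58 on one probe set and was not called on the other (0.02), and VWF, chosen after its values were seen, measured 3.62 and 3.81 at 24h and 3.72 and 3.85 at 30 days. Leukocyte markers fell in 12 of 30 and rose in 0, a count of 5 without 24h replicate 2, 3 without 30 days replicate 1 and 4 without 30 days replicate 2. With all arrays, 40.0% of the leukocyte markers were called, near the 41.2% of all genes. Their list means were 4.20 and 4.60 at 24h and 4.0 and 4.03 at 30 days. The second 24h array was the higher for FCER1G (4.56 and 6.81), SPI1 (4.95 and 5.99), NKG7 (4.12 and 5.56) and PTPRC, the common leukocyte antigen (3.84 and 4.97), against 3.57 and 3.35 for PTPRC at 30 days. Without 24h replicate 2 the changes of FCER1G, SPI1, NKG7 and PTPRC were -0.73, -0.70, -0.32 and -0.38, against -1.86, -1.23, -1.04 and -0.94 with it. Their part in the falls of the C1Q genes, SLA-DRA and other immune genes was not tested.

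Mesothelial markers rose in 2 of 10 and fell in 2 (1 fell without 24h replicate 1). UPK1B, a uroplakin, measured 9.70 and 9.39 at 24h and 10.83 and 10.59 at 30 days (1.17 ± 0.14), BNC1 rose by 1.08, PKHD1L1 fell by 1.31, and CALB2, calretinin, was not called (0.04). Pericyte and glial markers rose in 2 of 9, near the 20.2% of all genes, and fell in 0. They were NCAM1, from 6.80 and 7.70 to 10.37 and 9.98 (2.93 ± 0.25), and MCAM (1.73), while RGS5 (-0.03), CSPG4 (-0.00), SOX10 (-0.08) and GFAP (0.05) were not called. These 4 and CALB2 were chosen after their values were seen. Red blood cell markers rose in 1 of 8, GYPC (1.10, or 0.69 without 24h replicate 2), and fell in 1, HBB (-0.49, lost without 24h replicate 2 or 30 days replicate 1). Adipocyte markers fell in 2 of 8, LPL (-1.06) and LIPE (-0.67), and rose in 0 (4 fell without 30 days replicate 2). Of these lists, 40.0% of mesothelial, 22.2% of pericyte and glial, and 25.0% each of red blood cell and adipocyte markers were called. None of these shares exceeded the 41.2% of all genes. The part of stromal, mesothelial or muscle cells carried over at isolation in the rises of matrix and contractile genes was not tested.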

How the data were processed

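The authors deposited log2 expression values per probe set, made with RMA from 1-colour Affymetrix whole-transcript arrays, per the submitters' processing notes. That they are log2 follows from their range. The RMA version, any filters and the annotation build were not given in the sources used here. RMA equalises the arrays' distributions, so a general rise or fall of RNA could not be seen. Per the labels' protocols, 100 ng of total RNA was amplified and biotin-labelled.

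GEO's platform annotation gave the names, and 11102 identifiers matched RefSeq genes of Sscrofa11.1. Of 27558 probe sets, 11968 had 1 symbol, 379 were left out and 15211 were unnamed here. Where a gene had several probe sets (966 genes), the brightest on average was used, giving 10901 genes. A linear model (limma 3.58.1, R 4.3.3, lmFit and eBayes) with 1 mean per time was fitted to all 8 arrays, with 4 residual degrees of freedom. No values were rescaled and no gene was filtered. Folds are 2 to the power of the difference of deposited log2 means. In data simulated for 30 days against 24h over 10901 genes, 98 of 100 genes changed by 4-fold, 95 of 100 changed by 2-fold and 12 of 10701 unchanged genes were called. Its noise was normal, independent between arrays and genes, and sized by the spread between arrays of a time. Far fewer genes were changed than the 41.2% called in the real arrays. These rates check the fit and need not hold for the real comparison.

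Genes named by rule were the 15 largest called increases and decreases, the 4 (or fewer) most changed called genes of each of 35 lists, and the 5 largest called increases and decreases from 15 to 30 days that were also called against 24h. The lists, rule and comparison were chosen with earlier results of these data known. List members outside the 10901 genes were not analysed here. Alternatives were other scalings, probe set rules, a filter on dim genes, variance models, subsets of arrays, the replicate number as a block and a 2-fold minimum. The replicate numbers were not taken as pairs.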

Additional observations from a re-analysis of the deposited data

Results flagged for a closer look

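Of 15211 probe sets without a gene name here, 4474 were called between 24h and 30 days by limma (29.4%), 1982 higher and 2492 lower, with their own adjustment for multiple testing. At least 2-fold differences were called in 1926 of them. The largest increase was 5.77 log2 units and the largest decrease -5.70. These probe sets entered no comparison above, and what they measure is not known here.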

How the results depend on the processing

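The count of genes called between 24h and 30 days was 4494, lay between 4234 and 4596 under the other scalings, the mean of probe sets, another variance model, the filter on dim genes and the fit to the 4 arrays alone, and ranged from 3778 to 4061 with 1 array left out. With every named probe set tested, 4915 of 11968 probe sets were called. Requiring at least 2-fold left 1822 (970 higher, 852 lower). Of 143 genes named by rule, 135 kept their call and direction in every alternative fit in which they were tested, 8 lost the call at least once (FCER1G, NKG7, PTPRC, NR2F2, RPS6, WT1, HBB, UBE2C) and 0 reversed. The 2-fold minimum, which is no new fit, would keep 136 of the 143, and the test of every probe set is not part of this tally. Between arrays of the same replicate number, correlations of deviations were 0.008 for 24h and 30 days and 0.008 to 0.268 over all pairs of times. With 2 arrays per time these values cannot exclude a pairing. With the replicate numbers as a block 4613 genes were called, with 5 mitosis genes higher.

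Against 15 days, median centring called 884 genes higher, and leaving out 1 array gave 506 to 840 genes (167 to 307 higher, 323 to 533 lower). Against 7 days it gave 1886 to 2500 (893 to 1249 higher, 989 to 1298 lower), and median centring there moved the split from 1291 higher and 1541 lower to 1894 and 1172, with the all-gene median going from -0.01 to 0.12.

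Counts of list members moved by over 1.5 times as follows, and the cause was not tested beyond the smaller sets the settings leave. Median centring gave 1 smooth muscle gene lower. Without the dimmest 25% of genes, 6 cilia, 0 elastic fibre and 0 red blood cell genes were lower. A trended, robust variance gave 3 complement, 1 lysosome and 2 respiratory genes lower, and the 4 arrays alone gave 3 complement genes lower. At 2-fold, the members lower were 5 for cilia, 1 for mesenchymal factors, 0 for collagens, elastic fibres and red blood cells, 7 for mitosis, 4 for senescence, antigen presentation, proteases and hypoxia, 8 for immediate early genes, 13 for interferon, 3 for Wnt, ribosomal proteins and leukocytes, 2 for hormone receptors and IGF, 5 for antioxidants, and 1 for TGF-beta, mesothelium and adipocytes. Those higher were 1 for mitosis and immediate early genes, 7 for cytokines, 0 for interferon and antigen presentation, 8 for proteases and cholesterol, 11 for TGF-beta, 3 for IGF, 4 for antioxidants and 2 for the respiratory chain. With 1 array left out, members lower ranged from 0 to 1 for fibroblast, collagen, respiratory, red blood cell, smooth muscle and lysosome lists, from 1 to 2 for mesenchymal factors, elastic fibres and mesothelium, from 3 to 8 for Wnt, 5 to 8 for proteases, 3 to 13 for leukocytes, 2 to 5 for complement and 2 to 4 for adipocytes. Members higher were 2 for interferon, 1 to 2 for the epithelial list and 1 to 3 for mitosis.

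With 2 arrays a time, differences near the median standard error of 0.13 cannot be resolved, and genes near the floor have compressed folds.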

Other observations

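Gene groups assembled after the values had been seen are given as descriptions. Of 42 measured genes of ribosome biogenesis, the assembly of ribosomes in the nucleolus, 40 fell between 24h and 30 days and 1 rose, NOP10 (0.60), with a median of -1.41, and 33 fell by at least 2-fold. DKC1, the pseudouridine synthase dyskerin, measured 9.15 and 8.85 at 24h, 7.48 and 7.15 at 7 days, 7.34 and 7.34 at 15 days, and 6.53 and 6.32 at 30 days (-2.57 ± 0.15). LYAR (-2.55), MRTO4 (-2.45), NOLC1 (-2.18) and NCL, nucleolin (-1.74), fell as well. The list's mean level was 8.58 and 8.36 at 24h and 7.14 and 7.08 at 30 days.

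Fatty acid oxidation genes rose in 17 of 29 measured members and fell in 3, with a median of 0.61. ACADL, a long-chain acyl-CoA dehydrogenase, measured 3.92 and 4.0 at 24h, 7.01 and 6.33 at 7 days, and 8.05 and 7.99 at 30 days (4.06 ± 0.19). ACAA2, a thiolase (2.96), SCP2, a sterol carrier and thiolase (2.61), and DECR1, a dienoyl-CoA reductase (2.42), rose, whereas CPT1A, the carnitine transferase at the entry of the pathway, was not called (0.14).

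Of 15 measured genes of pigment cells, 4 rose and 3 fell, with a median of 0.03. The 46.7% called was near the 41.2% of all genes. TYRP1 (4.98), OCA2 (3.67 ± 0.14), MITF (2.93) and SLC45A2 (0.48) rose, and EDNRB (-5.75), RAB27A (-3.61) and KIT (-1.23) fell. OCA2, a melanosomal transporter, measured 3.80 and 3.60 at 24h, 5.16 and 5.20 at 15 days, and 7.19 and 7.55 at 30 days. The defining melanocyte genes TYR (2.75 and 3.14 at 24h, 3.19 and 3.12 at 30 days), DCT (3.17 and 3.13, then 2.84 and 3.19), PMEL (4.02 and 4.17, then 4.01 and 4.04) and MLANA (3.05 and 3.27, then 3.27 and 3.56) were not called.

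Of 158 microRNA precursor genes on the array, 6 rose and 14 fell (12.7% called, against 41.2% of all genes). Their mean level was 3.71 and 3.66 at 24h and 3.52 and 3.62 at 30 days, near the lower quartiles of the arrays.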
